A study of Drosophila melanogaster with 7 samples.

Results

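Tweedle and obstructor genes encode secreted proteins of the insect cuticle, and their transcripts were measured here in Drosophila melanogaster tracheae. The members were taken by name from the gene tables, as every row whose name starts with Twdl, obst-, Vajk, Cpf or Cpap, or is Gasp, Peritrophin-A or resilin. The rule found 37 of 17697 named rows. They are 26 Tweedle genes, 10 genes grouped here as the obstructor family (obst-A, obst-B, obst-E to obst-J, Gasp and Peritrophin-A), and resilin. No row name starts with Vajk, Cpf or Cpap.

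Libraries of messenger RNA came from tracheae of larvae in the third instar, 3 from Hop.CA animals and 4 from controls, titled as wild type. Hop.CA is the form of hop, the Drosophila JAK kinase gene, that the study expressed ectopically to raise JAK/STAT signalling in the airway epithelium. All 7 libraries carry 1 strain label, btl-Gal4, UAS-GFP, UAS-Hop.CA and tub-Gal80ts, by which the controls are described as carrying the transgene too. The driver btl-Gal4 is active in tracheal cells, and Gal80ts is a temperature-sensitive repressor of Gal4. Hop.CA animals grew at 18 °C until the second larval stage and then spent 18 hours at 29 °C before sampling, while control animals stayed at 18 °C. Transgene expression, temperature and any difference in larval age that came with these schedules therefore cannot be told apart. The labels do not say how many animals a library holds or where within the instar they were taken.

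The tracheal tube is an epithelium lined on its inside by a chitin cuticle, whose ridges keep the airway open and which is shed and rebuilt at each moult. Tweedle proteins are a family of structural cuticle proteins known for body-shape mutants in the fly. Obstructor proteins carry chitin-binding domains of the peritrophin-A type. In the fly, obst-A organises chitin and its modifying enzymes in the growing cuticle, Gasp is needed for normal chitin in the tracheal lumen, and resilin is a rubber-like elastic protein.

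Reads assigned to genes numbered 18618125 to 19597298 in the Hop.CA libraries and 16795748 to 20455268 in the control libraries. hop itself stood at 1342 to 1593 CPM (read counts relative to the normalised library size) in Hop.CA and 38.4 to 44.03 CPM in control. The members took 0.273% to 0.299% of the reads in Hop.CA libraries and 0.339% to 0.377% in control libraries. CPM does not account for gene length. Fold changes are log2 values of Hop.CA over control with their standard error (SE) and, where given, their 95% interval. All p-values are from the quasi-likelihood test of edgeR, adjusted by the Benjamini-Hochberg method across the 9457 genes tested unless another tool is named, and a gene was called at an adjusted p under 0.05. Nothing in the labels states that the replicates came from separate crosses, so the p-values measure the spread between these libraries.

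Most members were barely read in this tissue, and a few carried nearly all the signal. By TPM, the deposited level scaled to exon length, 7 of the 37 members averaged above 100 TPM and 10 above 10 TPM over the 7 libraries. 15 members had enough reads to be tested, and the other 22 were not. Of those 22, 19 had fewer than 10 reads in every library. obst-G, obst-I, TwdlQ and TwdlR had no read in any library, which allows up to 0.178 CPM (3 reads, counting error only) in the shallowest library. resilin had 1 read in all, in Hop.CA replicate 3.

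**Figure D1:**
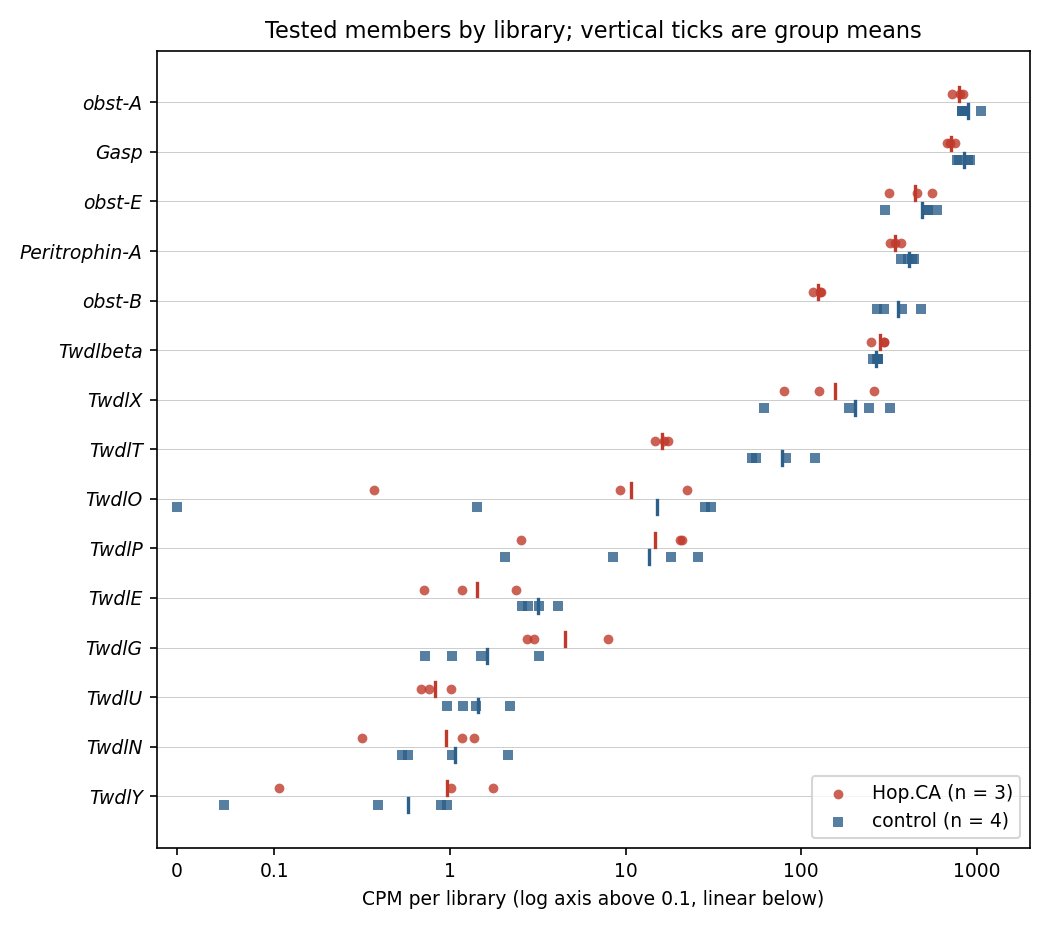
CPM of the 15 tested members in each library, on a log axis above 0.1 CPM and a linear one below, with Hop.CA libraries as circles above the control libraries as squares and group means as vertical ticks. The groups part without overlap for obst-B, TwdlT, Gasp and TwdlE, while TwdlO, TwdlP and TwdlX spread widely within both groups.

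The order of levels by TPM began with the same genes in both groups. obst-A averaged 620.5 ± 30.2 TPM in Hop.CA and 679 ± 48.3 TPM in control (SD, n = 3 and n = 4). Twdlbeta followed with 602 ± 49.6 TPM in Hop.CA and 559 ± 29.2 TPM in control, and its range overlapped that of obst-A in Hop.CA. Gasp came next with 458 ± 12.0 TPM in Hop.CA and 527 ± 62.8 TPM in control. obst-E had 365.5 ± 89.9 TPM in Hop.CA and 389.6 ± 91.6 TPM in control, and Peritrophin-A had 345 ± 15.8 TPM in Hop.CA and 398 ± 18.5 TPM in control. Neighbours in the control order overlapped in range from Twdlbeta down to TwdlP. obst-B stood in place 7 in Hop.CA, at 165 ± 13.2 TPM, and in place 4 in control, at 457 ± 132 TPM. TwdlX averaged 175 ± 109 TPM in Hop.CA and 221 ± 122 TPM in control. Below these came TwdlP, TwdlO and TwdlT in Hop.CA, and TwdlT, TwdlO and TwdlP in control.

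Of the 15 tested members, 2 fell in Hop.CA, obst-B and TwdlT, and none rose. Over all 9457 tested genes 31.5% were called, 15.1% as lower and 16.4% as higher. The members called made up 13.3% of those tested. How that share stands to the share over all genes depends on the setting, and their difference was not tested. Calls over all genes numbered 2978, against 1829 without Hop.CA replicate 1 and 1676 without Hop.CA replicate 3. In 4 of the tested members, obst-B, Gasp, TwdlT and TwdlE, every Hop.CA library was below every control library, and in none of the 15 was every Hop.CA library above. Over all tested genes 43.3% did not overlap, 20.0% with Hop.CA lower and 23.3% with Hop.CA higher. At an unadjusted p under 0.05, which 44.1% of all tested genes reached, edgeR found 5 members lower and 1 higher. DESeq2 called 5 members lower and 1 higher of 33 with any read, beside 3298 calls in 13419 genes with any read. These totals include rows too low for a test, so the DESeq2 shares are not compared. All its member calls lay among the 15. With limma-voom 3 of 15 members were lower and none higher, beside 2942 of 9457 genes called. The limma-voom calls were a smaller share among the members. Leaving out control replicate 2 and Hop.CA replicate 1 together gave 4 of 16 tested members lower, beside 1573 of 9565 genes called, a larger share among the members. The share was also larger with the replicate number as a block, with 2 of 15 members lower beside 938 of 9457 genes called. The median log2 fold change of the 15 was -0.25, beside -0.01 over all tested genes. These libraries are of whole tracheae, so fewer cells of a type and less RNA per cell cannot be told apart.

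**Figure D2:**
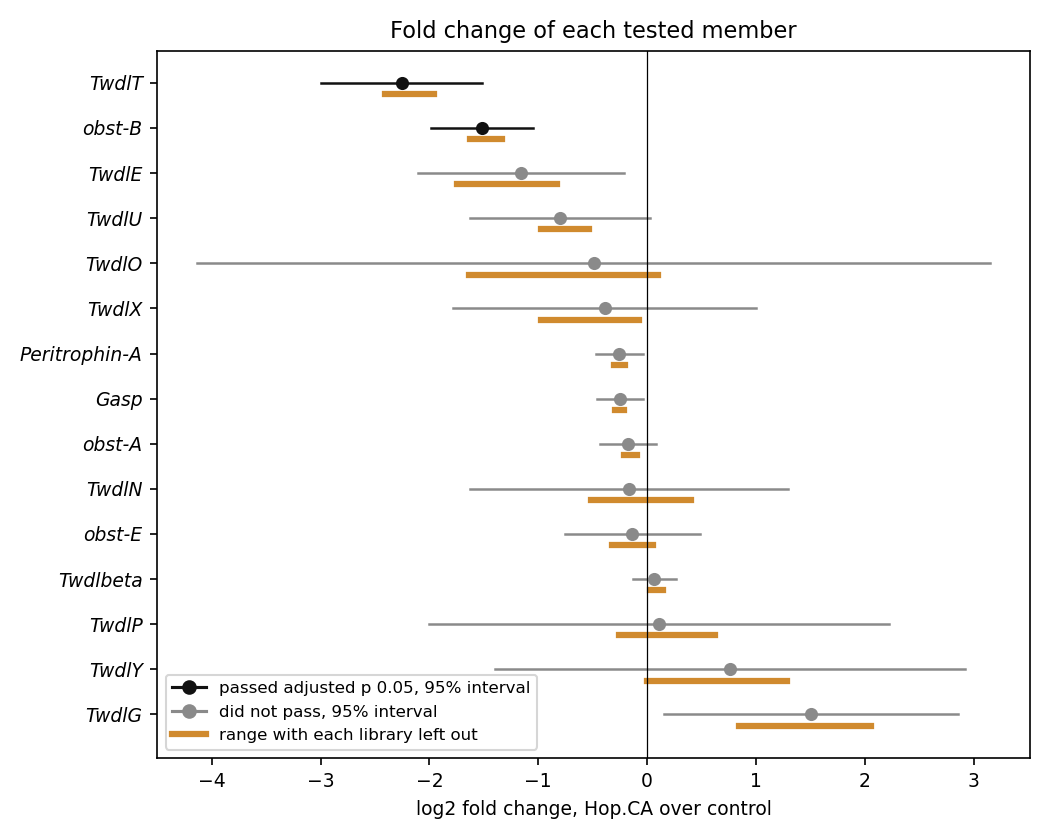
Log2 fold change of Hop.CA over control for each tested member, with its 95% interval (black where called, grey where not) and, as an orange bar, its range when each library is left out in turn. TwdlT and obst-B lie wholly below 0 under both measures, as do TwdlE, Gasp and Peritrophin-A, which were not called. TwdlG, also not called, lies wholly above 0 under both, while the interval of TwdlO runs from -4.14 to 3.15.

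obst-B fell 2.86-fold, the largest change in CPM of any member. It had 128, 116 and 129 CPM in Hop.CA replicates 1 to 3, against 372, 483, 295 and 269 CPM in control replicates 1 to 4. Every Hop.CA library was below every control library, and the Hop.CA libraries lay close together. The means were 124 ± 7.03 CPM in Hop.CA and 355 ± 95.9 CPM in control (log2 -1.51 ± 0.203 SE, 95% interval -1.98 to -1.04, adjusted p = 0.00197). All its reads were assigned uniquely, and reads spanning a splice junction numbered 339 to 386 per Hop.CA library and 849 to 1590 per control library. The gene lies on chromosome 2L (dm6, 10032690 to 10038954, plus strand) and overlaps no other row.

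The rest of the obstructor family differed less. Gasp had 674, 749.7 and 699.7 CPM in Hop.CA, against 774, 908, 888 and 789.8 CPM in control. Its groups did not overlap, but it did not pass (log2 -0.25 ± 0.0905, 95% interval -0.46 to -0.04, adjusted p = 0.0711). Peritrophin-A, named for chitin-binding proteins of the gut lining, had 318, 368 and 343 CPM in Hop.CA, against 437, 368, 429.6 and 403 CPM in control (log2 -0.25 ± 0.0923, interval -0.47 to -0.04, adjusted p = 0.0696). The highest Hop.CA library was level with the lowest control library. Both genes lay near the threshold. Gasp was called without control replicate 1 (adjusted p = 0.0276) and Peritrophin-A without control replicate 2 (adjusted p = 0.0385), and DESeq2 called both.

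obst-A, the most abundant member, had 723, 834 and 803 CPM in Hop.CA, against 1049, 823, 828 and 853 CPM in control. Only control replicate 1 stood clearly above the Hop.CA libraries (log2 -0.17 ± 0.111, interval -0.43 to 0.08, adjusted p = 0.26). obst-A and Peritrophin-A adjoin on chromosome X, within 8349 bases (20239855 to 20248203, both on the plus strand). obst-E, which in the fly shapes the cuticle of the pupal case, had 315, 552 and 457 CPM in Hop.CA, against 594, 301, 517 and 529 CPM in control. Here 1 library in each group was low, Hop.CA replicate 1 and control replicate 2, and the groups overlapped (log2 -0.14 ± 0.265, interval -0.76 to 0.48, adjusted p = 0.73). obst-F, obst-G, obst-H, obst-I and obst-J reached at most 6 reads in any library. obst-H had 2, 4 and 5 reads in Hop.CA, against 0, 1, 1 and 2 reads in control, too few to be tested.

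As a share of the summed TPM of the 10 obstructor genes, obst-B made up 9.57%, 7.24% and 8.62% in Hop.CA, against 17.9%, 25.6%, 15.8% and 14.9% in control. The share of obst-A was 30.96% to 32.5% in Hop.CA and 26.0% to 30.1% in control. For both genes the shares did not overlap between the groups. Such shares sum to a fixed total, so a lower share of one gene raises those of the others. The summed CPM of all 37 members was 2692 to 3104 in Hop.CA and 3332 to 3884 in control. obst-B made up 34.4% of the difference between these group means, Gasp 19.7%, obst-A 15.1%, Peritrophin-A 9.86% and TwdlT 9.12%.

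**Figure D3:**
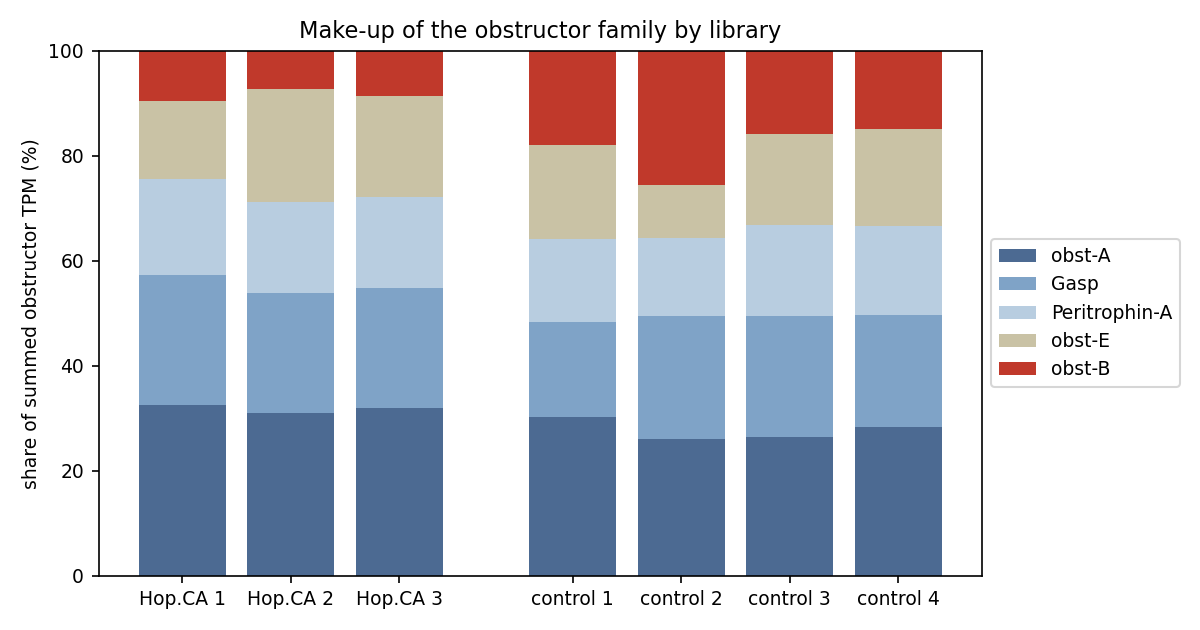
Share of summed obstructor TPM (%, stacked) held by each of the 5 expressed family members in the Hop.CA libraries (left) and the control libraries (right). The obst-B share lies between 7.24% and 9.57% in Hop.CA and between 14.9% and 25.6% in control.

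Among Tweedle genes TwdlT fell 4.77-fold. It had 17.4, 14.7 and 16.5 CPM in Hop.CA, against 81.4, 120.4, 52.5 and 55.3 CPM in control. The groups lay far apart, and control replicate 2 was the highest library, as it was for obst-B. The means were 16.2 ± 1.36 CPM in Hop.CA and 77.4 ± 31.5 CPM in control (log2 -2.26 ± 0.316 SE, interval -3.00 to -1.51, adjusted p = 0.00288).

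The count of TwdlT depends on how overlapping genes were handled. On chromosome 3R it lies (27049220 to 27051004) inside RYa-R, a neuropeptide receptor gene on the same strand, and no exon of one overlaps an exon of the other in the Ensembl annotation. Only 0.304% to 1.09% of its reads were assigned uniquely, 1 to 3 reads per Hop.CA library and 3 to 13 per control library, and these equal in number its reads across a splice junction. With unique reads alone TwdlT was too low to be tested. RYa-R had 78 to 117 reads per Hop.CA library and 47 to 62 per control library, where TwdlT had 276 to 329 and 883 to 2510.

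Twdlbeta, the most abundant Tweedle gene, did not pass. It had 248, 297 and 296 CPM in Hop.CA, against 272, 256, 274 and 269.8 CPM in control. The groups overlapped (log2 0.06 ± 0.0862, interval -0.13 to 0.26, adjusted p = 0.595). All its reads were unique. The gene has a single exon and lies on chromosome 2R (11862537 to 11863252, minus strand), apart from the other members.

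TwdlX varied more within the groups than between them. It had 259, 126 and 80.2 CPM in Hop.CA, against 245, 61.7, 186 and 319 CPM in control. Hop.CA replicate 1 was above most controls, and control replicate 2 was the lowest library of all (log2 -0.39 ± 0.59, interval -1.78 to 1.004, adjusted p = 0.647). Without those libraries together it was called lower (log2 -1.28, adjusted p = 0.0376), a choice made after seeing the data. TwdlX opens a group of Tweedle genes on chromosome X (16731091 to 16744365), followed by TwdlY, TwdlZ and Twdlalpha, all within goe, which is transcribed from the opposite strand. None of their exons overlaps an exon of goe in the Ensembl annotation. Unique reads were 6.23% to 7.39% of those of TwdlX, 107 to 344 per Hop.CA library and 95 to 447 per control library, about as many as its reads across splice junctions (111 to 346 and 96 to 450). These unique reads ranked the libraries much as the total did, with control replicate 4 highest and control replicate 2 lowest.

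TwdlY had 0.106, 1.76 and 1.01 CPM in Hop.CA, against 0.966, 0.0480, 0.892 and 0.389 CPM in control, none of it unique (adjusted p = 0.561). Twdlalpha had 2, 5 and 158 reads in Hop.CA, against 10, 2, 5 and 1 reads in control. Hop.CA replicate 3 alone held most of them, 14 of its reads crossed a splice junction, and the gene was not tested. TwdlZ had 2 reads in all.

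The largest Tweedle group, 12 genes within 21937 bases of chromosome 3R (26619118 to 26641054), was mostly silent. Only TwdlP, TwdlO and TwdlN were tested, and none passed. TwdlO had 0.37, 9.34 and 22.5 CPM in Hop.CA, against 30.5, 0, 1.43 and 28.4 CPM in control (log2 -0.49 ± 1.54, adjusted p = 0.836). TwdlP had 2.54, 20.97 and 20.5 CPM in Hop.CA, against 18.03, 2.06, 8.51 and 25.7 CPM in control (log2 0.11 ± 0.895, adjusted p = 0.939). Both genes were low in Hop.CA replicate 1 and in control replicates 2 and 3, and high in control replicates 1 and 4. The sign of either fold change turned when single libraries were left out. TwdlN, between TwdlJ and TwdlH, had 0.317, 1.17 and 1.36 CPM in Hop.CA, against 2.15, 0.576, 0.535 and 1.02 CPM in control (adjusted p = 0.864). Its lowest libraries were the same. The other 9 genes of the group had at most 10 reads in any library. TwdlH had 2, 3 and 4 reads in Hop.CA, against 0, 1, 0 and 0 reads in control, and was not tested.

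**Figure D4:**
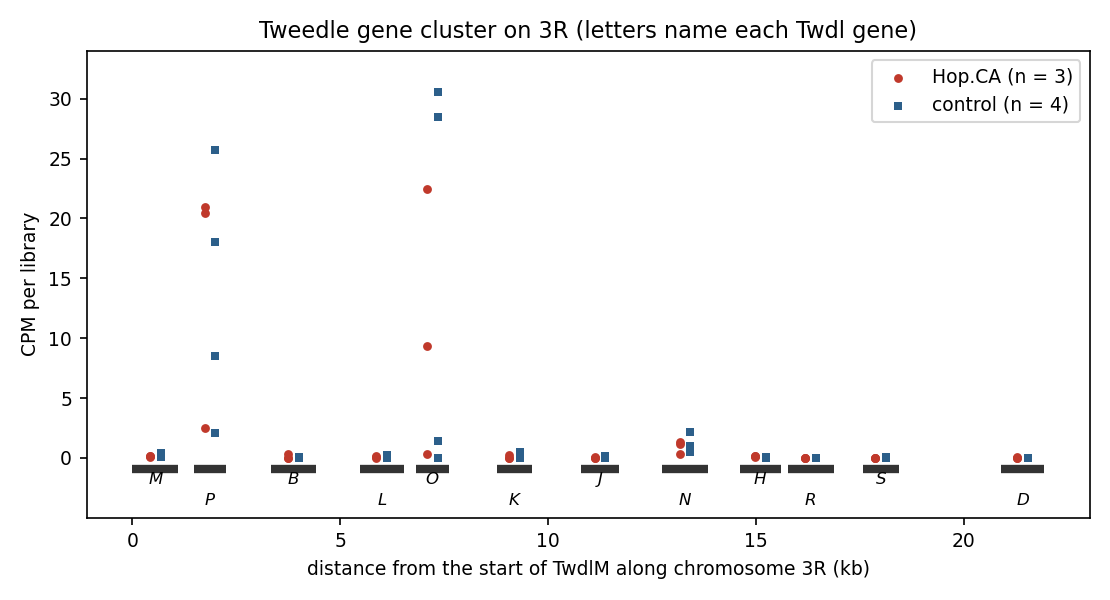
CPM in each Hop.CA library (circles) and control library (squares) for the 12 Tweedle genes grouped on chromosome 3R, against distance in kb from the start of TwdlM, with black bars for the genes. TwdlP and TwdlO reach 25.7 and 30.5 CPM, TwdlN reaches 2.15 CPM, and the others stay near 0.

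The remaining Tweedle genes were low. TwdlE had 2.38, 1.17 and 0.707 CPM in Hop.CA, against 2.58, 4.13, 3.21 and 2.77 CPM in control, without overlap (log2 -1.16 ± 0.408, interval -2.10 to -0.22, adjusted p = 0.0638). DESeq2 (adjusted p = 0.0267) and limma-voom (0.0377) called it lower. Its exons overlap those of lectin-28C on the opposite strand over 1148 bases, and at most 14.3% of its reads were unique, so its level is uncertain. On 3R, TwdlU, TwdlF, TwdlG and TwdlV lie within 12228 bases (4243606 to 4255833). Among the 15 tested members TwdlG had the largest positive fold change, with 3.01, 7.90 and 2.73 CPM in Hop.CA, against 1.503, 0.720, 3.21 and 1.02 CPM in control. Its groups overlapped through control replicate 3 (log2 1.51 ± 0.579, interval 0.16 to 2.85, adjusted p = 0.0834), and without that library it was called higher (log2 2.06, adjusted p = 0.03). DESeq2 also called it higher (0.0348). TwdlU, a row without annotated exons whose TPM is therefore listed at 0, had 0.688, 1.01 and 0.758 CPM in Hop.CA, against 1.18, 0.96, 2.20 and 1.41 CPM in control (log2 -0.80 ± 0.359, adjusted p = 0.125). TwdlF and TwdlV reached at most 10 reads, as did TwdlC and TwdlW, which lie elsewhere on 3R.

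In 4 rows under other names, the present RefSeq symbol is Vajk1 to Vajk4. The name rule does not reach them, and they are not counted as members. CG16885 (Vajk2) had 1068, 2727 and 1868 CPM in Hop.CA, against 3852.5, 2749.8, 3864 and 3966 CPM in control (log2 -0.93 ± 0.304, adjusted p = 0.0529). CG16884 (Vajk3) had 785, 2019.7 and 1380.5 CPM in Hop.CA, against 3122, 2028, 2987 and 3219 CPM in control (log2 -1.03 ± 0.32, adjusted p = 0.0468). Both stood above every member in CPM in all libraries, and their groups did not overlap, though Hop.CA replicate 2 came close to control replicate 2. CG16886 (Vajk1) had 2.43, 1.01 and 1.01 CPM in Hop.CA, against 3.49, 6.76, 3.15 and 3.26 CPM in control, also without overlap (log2 -1.49 ± 0.437, adjusted p = 0.0348). CG30101 (Vajk4) had 2.01, 7.26 and 4.34 CPM in Hop.CA, against 8.69, 5.997, 7.91 and 9.77 CPM in control, and its groups overlapped (log2 -0.83 ± 0.392, adjusted p = 0.142). These calls lay near the threshold. That of CG16884 was lost without control replicate 1, 3 or 4 or Hop.CA replicate 1 or 3 (adjusted p 0.0732 to 0.13), and that of CG16886 without control replicate 2 or Hop.CA replicate 2 or 3 (0.0586 to 0.121). Both were lost with the replicate number as a block (0.187 and 0.105), and that of CG16884 also without a filter on low counts (0.0768). CG16885 and CG30101 were called lower without Hop.CA replicate 2 (adjusted p = 0.0167 and 0.0327), and DESeq2 called CG16885 lower (0.00383). Vajk1, Vajk2 and Vajk3 lie inside Ance-3, a gene of the opposite strand with 205 to 694 reads per library, so their levels are uncertain. This weighs most on CG16886, with 19 to 141 reads per library, against 20184 to 81598 for CG16885 and 14839 to 66227 for CG16884.

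Other genes of chitin formation and breakdown moved in both directions. Of 31 listed genes for chitin synthesis, deposition, deacetylation, chitinases and chitinase-like proteins, 26 were tested, 8 rose and 2 fell. Over all tested genes 16.4% were called higher and 15.1% lower, and the difference from these shares was not tested. None of the tested chitinase genes was called. serp, a tracheal chitin deacetylase gene, had 5508, 5407 and 5204 CPM in Hop.CA, against 3397, 3350.04, 3066 and 3017 CPM in control (log2 0.74 ± 0.0782, adjusted p = 8.23e-04). Idgf3, of the chitinase-like growth factors, also rose, to 955, 944 and 858 CPM in Hop.CA, against 645, 502, 599.99 and 554 CPM in control (log2 0.68 ± 0.102, adjusted p = 0.00299). reb, a gene of chitin deposition, fell to 94.0, 121 and 106 CPM in Hop.CA, against 162, 162, 178 and 169.5 CPM in control (log2 -0.65 ± 0.0977, adjusted p = 0.00293). Cda5, another deacetylase gene, was at 65.8 to 66.9 CPM in Hop.CA and 81.6 to 165 CPM in control (log2 -0.92 ± 0.221, adjusted p = 0.0185). Its call was lost without any 1 of the Hop.CA libraries (adjusted p 0.0531 to 0.0646). The same held with the replicate number as a block (0.0754) and without control replicate 2 and Hop.CA replicate 1 together (0.0687). The list called 4 genes higher and 1 lower without control replicate 2 and Hop.CA replicate 1 together. Its lower calls numbered 5 without control replicate 1 and 1 without Hop.CA replicate 1 or 3.

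Markers of the tracheal epithelium and of other tissues differed between the groups in some lists and not in others. The 9 tracheal epithelium markers, 2 of which are also chitin deacetylase genes of the list above, summed to 15600.5 to 16467 CPM in Hop.CA and 10665 to 11453 CPM in control, with 3 higher and 1 lower. Most of that sum is serp and verm, the deacetylase genes. The other 7 markers summed to 1831 to 1934 CPM in Hop.CA and 1795 to 2221 CPM in control, with trh higher and btl lower. Of 12 muscle markers 6 were lower, with sums of 3188 to 9861 CPM in Hop.CA and 9472 to 20064 CPM in control. Of 8 imaginal disc markers 4 were lower, with sums of 16.0 to 33.3 CPM in Hop.CA and 47.4 to 119 CPM in control. Of 4 larval epidermal cuticle markers 3 were lower, with sums of 7394 to 12855 CPM in Hop.CA and 18188 to 24216 CPM in control. Of 5 tested ring gland markers 2 were lower, with sums of 7.93 to 11.95 CPM in Hop.CA and 11.1 to 77.6 CPM in control, the highest in control replicate 2. None of the 7 fat body, 7 hemocyte and 4 neuron markers was called, nor the 1 tested midgut marker, and no salivary gland marker was tested. No marker of these lists was at 0 in all libraries.

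Beside the levels of obst-B and TwdlT given above, the muscle sums were 3188, 9861 and 4293 CPM in Hop.CA replicates 1 to 3, against 12745, 9472, 15785 and 20064 CPM in control replicates 1 to 4. The disc sums were 33.3, 16.0 and 26.6 CPM in Hop.CA, against 52.4, 47.4, 64.3 and 119 CPM in control. The library lowest in both genes among the Hop.CA ones, replicate 2, had the lowest disc sum and the highest muscle sum of its group. The library highest in both genes, control replicate 2, had the lowest disc and muscle sums of the controls. Lcp1, a larval cuticle protein gene of the epidermal list, had 2335, 2409.6 and 1276 CPM in Hop.CA, against 5653, 7204, 3639 and 3231 CPM in control. Lcp1 ranked the controls as obst-B did, but the Hop.CA libraries in the opposite order to obst-B, whose values there lay close together. Lcp2, Lcp3 and Lcp4 of the same list did not share that control order. All of them were highest in control replicate 1, and Lcp3 was lowest in control replicate 2. The part of these tissues in the result was not tested.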

How the data were processed

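Sequencing libraries preserved strand, per the labels' protocols. The authors deposited 1 table per library with raw read counts per gene (total, unique, exon, exon-exon and intron reads) and TPM values scaled to exon length, per the file headers. The submitters' processing notes name dm6 as the build and cutadapt 1.8.1. Aligner, counter and use of strand: not given in the sources used here. 1 unnamed row without reads was left out of each table.

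Total gene reads were fitted in R 4.3.3 by edgeR 4.0.16 (filterByExpr with minimum count 10 and minimum total 15, TMM, robust quasi-likelihood, group as the only term), which was tested on simulated data. Standard errors were computed back from the F statistic and intervals from its degrees of freedom. limma 3.58.1 and DESeq2 1.42.0 served as alternatives, as did RLE or library-size scaling, other count filters, exon or unique reads, an adjusted p under 0.01, the replicate number as a block and each library left out in turn, and matplotlib 3.10.9 drew the figures. All 37 members lie at the position and strand of an Ensembl gene (BDGP6, dm6 coordinates). RefSeq (Release 6) gave present symbols for 17655 rows. No 2 libraries matched within sampling noise (lowest chi-square per degree of freedom 20.6). Intervals on counts cover counting error only.

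Every member was a named gene. Of the chitin list at most the 2 called genes of largest change in each direction were named. The members and lists were chosen with earlier results of these data known. The Vajk rows, RYa-R, goe, lectin-28C, Ance-3, trh, btl, verm and Lcp1 to Lcp4, and the tracheal sum without serp and verm, were chosen after their values were seen.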

Additional observations from a re-analysis of the deposited data

Results flagged for a closer look

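obst-A in control replicate 1 had 1049 CPM, apart from the other controls at 823 to 853 CPM. Its gap to the next library was 0.87 of the range of the control group, above Dixon's 95% critical value for 4 samples. 18 control groups were examined, and chance flags about 1 in 20.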

How the results depend on the processing

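obst-B and TwdlT kept their direction and their call in every setting that tested them: 17 for obst-B (log2 -1.63 to -1.33, adjusted p up to 0.0265) and 16 for TwdlT (log2 -2.41 to -1.96, adjusted p up to 0.0319). The exception is unique gene reads, where TwdlT fell under the filter and 1 member was lower. DESeq2 gave 5 members lower and 1 higher of the 33 with any read. The joint omission of control replicate 2 and Hop.CA replicate 1 gave 4 of 16 lower. That pair was left out after seeing the data, because their deviations from the group means had the highest correlation between groups (r = 0.432). Without 1 library at a time, 0 to 1 members were higher and 2 to 3 lower.

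Over all genes, 2978 were called, 1676 to 3407 without 1 library (1829 without Hop.CA replicate 1, 1676 without replicate 3), 1573 without the pair, 1312 at an adjusted p under 0.01 and 938 with the replicate block. In the chitin list, 6 to 8 genes were higher and 1 to 5 lower without 1 library, 4 and 1 without the pair, 5 and 1 with the block, and 1 was lower at an adjusted p under 0.01.

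Signs reversed for weakly estimated members, none called in those settings. The log2 fold change of TwdlO was 0.99 with limma-voom, 2.25 with the replicate block, and -1.64 to 0.10 without 1 library. Without 1 library it was -0.26 to 0.62 for TwdlP, -0.00336 to 1.29 for TwdlY, -0.33 to 0.0574 for obst-E and -0.52 to 0.40 for TwdlN, which was 0.0352 without the pair. The cause was not tested.

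Same-numbered libraries had correlations of -0.223, -0.432 and -0.0694, so none correlated best with its own number. Whether the numbers mark a shared batch was not tested, as deviations from group means in so few libraries cannot decide it. The block changed neither member call. Members under about 10 reads cannot be compared at this depth.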
